A study of Homo sapiens with 72 samples.

Results

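Glutamine amidotransferases take the amide nitrogen of glutamine and pass it to another molecule. Rows of the count table were chosen by the symbols of 10 such enzymes (ASNS, CAD, CTPS1, CTPS2, GMPS, PFAS, PPAT, GFPT1, GFPT2 and NADSYN1), of 44659 gene names in the table, and no measured value entered that choice. All 10 symbols were present. Of these, 9 had counts in all 72 libraries and passed the count filter of every fit, and ASNS did not.

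The libraries were made from cytoplasmic RNA of A375, an established human melanoma line grown in medium with glutamine, by QuantSeq, which reads the 3′ end of polyadenylated RNA. In the siRNA experiment, cells received 2 pooled siRNAs against CTU2 (siCTU2) or the control siRNA siGL2, and treatment began after 42 h. In the medium experiment, plated cells were kept for 18 h without glutamine (mQ) or in medium that contained it (pQ). Each of these 4 conditions was treated for 0, 3 or 5 h with 25 µM triptolide, an inhibitor of transcription, alone (T arm) or with 100 µg/ml cycloheximide, an inhibitor of translation (TCHX arm), which gave 24 groups of 3 replicates. Nothing in the sources says whether replicates came from separate cultures, so p-values measure the spread between these libraries, which may be technical.

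These enzymes are the points at which glutamine nitrogen enters biosynthesis. PPAT, PFAS and GMPS act in purine synthesis, CAD starts pyrimidine synthesis, and CTPS1 and CTPS2 convert UTP to CTP. GFPT1 and GFPT2 commit fructose 6-phosphate to the hexosamine pathway that feeds protein glycosylation, NADSYN1 completes NAD synthesis from the acid form, and ASNS makes asparagine from aspartate. CTU2, the siRNA target, is a subunit of the enzyme that thiolates the wobble uridine of tRNAs for lysine, glutamate and glutamine.

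The enzymes release the ammonia with different glutaminase domains. ASNS, GFPT1, GFPT2 and PPAT carry the type whose catalytic cysteine stands at the start of the mature protein, whereas CAD, CTPS1, CTPS2, GMPS and PFAS use a cysteine inside the chain and NADSYN1 has a nitrilase-type domain. The first 45 bases of the coding sequences of the former are shown because they hold the codon of that cysteine. The first cysteine codon (TGT or TGC) is in capitals, and sequences were read from the canonical GENCODE transcripts, 5′ to 3′.
ASNS: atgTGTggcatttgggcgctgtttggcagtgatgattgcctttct
GFPT1: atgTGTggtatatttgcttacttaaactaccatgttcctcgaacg
GFPT2: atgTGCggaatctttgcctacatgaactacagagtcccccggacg
PPAT: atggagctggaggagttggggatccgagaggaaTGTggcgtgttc
In ASNS, GFPT1 and GFPT2 the cysteine codon followed the start codon directly, which was the case in 164 of 19701 canonical coding sequences (0.832%). In PPAT it was codon 12, behind a short stretch that is removed from the mature enzyme. A cysteine codon early in the sequence was not particular to the class, since the first was codon 4 in GMPS and codon 10 in NADSYN1.

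In the GENCODE annotation of GRCh38, CAD (27217369 to 27243943, plus strand) and GFPT1 (69319780 to 69387250, minus strand) lie on chromosome 2. CTPS1 lies on chromosome 1 (40979300 to 41012565, plus strand), GMPS on chromosome 3 (155870650 to 155944020, plus strand) and PPAT on chromosome 4 (56393362 to 56435615, minus strand). GFPT2 is on chromosome 5 (180300698 to 180353336, minus strand), ASNS on chromosome 7 (97851677 to 97872542, minus strand), NADSYN1 on chromosome 11 (71453109 to 71524107, plus strand), PFAS on chromosome 17 (8247618 to 8270491, plus strand) and CTPS2 on chromosome X (16587999 to 16712936, minus strand). The canonical transcript of each of the 9 counted members shared 0% of its exon bases with another gene of the same strand.

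Libraries held 5987692 to 15534331 counts. Over 8224 genes, which are not independent replicates, replicates 1 and 2 of a group correlated with r between 0.965 and 0.991, whereas r with replicate 3 was 0.876 to 0.942 at 5 h. Among the replicate 3 libraries, 3 stood apart: 1 of mQ (T arm, 5 h), 1 of pQ (TCHX arm, 0 h) and 1 that carries the siCTU2 label (TCHX arm, 5 h). They detected 19896 to 20364 genes, and the remaining 69 libraries 15507 to 17495. Their summed level of 3 leukocyte markers was 63.5 to 64.9 CPM (counts scaled to the library total), carried by PTPRC and CD3E with CD14 at most at 0.739 CPM, and the sum was at most 0.759 CPM elsewhere. CTU2 was at 0.133 to 2.95 CPM in 17 siCTU2 libraries and at 17.5 to 35.0 CPM in the 18 siGL2 libraries. The outlying library with the siCTU2 label was at 10.4 CPM, between these ranges, so its label is uncertain. Of 9 melanocyte and melanoma markers, 7 were above 1 CPM in every library, including SOX10 and MITF (medians 243 and 150 CPM), while MLANA and TYR, which define pigmented cells, had medians of 0.20 and 0.208 CPM. Keratinocyte, fibroblast and endothelial marker sums stayed at or below 11.7 CPM. The part of these libraries in the results was not tested beyond the fits without them that are given below.

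ASNS was close to absent from the table. It had 65 counts in all 72 libraries together, no more than 9 in any library, and 52 libraries listed it at 0. Of these counts, 56 fell in the 18 mQ libraries (15 of them above 0), 6 in the 18 pQ libraries (3 above 0), 2 in siCTU2 and 1 in siGL2. Pooled over libraries, this was 0.302 CPM in mQ (exact Poisson 95% interval of the count 42.3 to 72.7, for counting error only) and 0.0318 CPM in pQ (2.2 to 13.1 counts). Summed over the 6 libraries of a replicate number, mQ had 18, 16 and 22 counts and pQ had 0, 4 and 2, so the sums did not overlap. The exact permutation test of these 3 against 3 values gave p = 0.1 (two-sided), the smallest this design allows. ASNSP1, a pseudogene copy of ASNS, had 47 counts in mQ and 5 in pQ, and reads of near-identical copies may be divided between the names, so both are uncertain.

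The ASNS gene is covered by another annotated gene. In GENCODE, 99.5% of the exon bases of its canonical transcript, and 97.8% of the last 500 bases, where QuantSeq reads fall, also belong to exons of the same-strand long non-coding RNA gene ENSG00000284707 (97851688 to 97972985 on chromosome 7). The count table holds a readthrough name over ASNS, CZ1P-ASNS, which had 0 counts in every library. How reads on shared exons were assigned is not given in the sources used here, and the part of this overlap in the low ASNS count was not tested. The ASNS counts are therefore not a level that can be compared with the other members. One stretch before the ASNS start is printed because it is the sole member promoter with the amino acid response motif TGATGNAA (in capitals, 68 bases before the RefSeq start, minus strand, GRCh38.p14, chr7:97872437-97872516).
ASNS: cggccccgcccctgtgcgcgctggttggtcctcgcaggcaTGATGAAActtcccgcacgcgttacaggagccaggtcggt
Both strands of the 250 bases before and 50 bases after each RefSeq start were searched. TGATGNAA was found in 3.62% of 35116 promoters and in 1 of the 13 promoters of the 10 members. The E-box CACGTG was found in 7.26% of promoters and, among members, in that of PPAT. GGGCGG, also searched, was found in 45% of promoters and in at least 1 promoter of each of the 10 members, and this difference was not tested. A match in these letters is a description of the sequence and not a binding site.

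The levels of the counted members at 0 h fell into a high, an intermediate and a low range, of which the high and intermediate overlapped. QuantSeq reads 1 end per transcript, so counts were not divided by transcript length, and levels are CPM of 3′ ends. GFPT1, GMPS, CTPS1, CAD and PPAT stood between 66.2 and 186 CPM in the T arm of all 4 conditions, and PFAS between 49.5 and 79.0 CPM. CTPS2 (8.20 to 17.0 CPM), GFPT2 (5.52 to 24.6 CPM) and NADSYN1 (4.07 to 10.2 CPM) were much lower. In pQ, CTPS1 (mean 135 ± 13.3 CPM, SD, n = 3) was followed by CAD (119 ± 6.01 CPM), GMPS (117 ± 2.85 CPM) and GFPT1 (105 ± 2.60 CPM), of which CAD and GMPS did not differ beyond their spread. In siGL2 the order was GFPT1 (177 ± 8.83 CPM), CTPS1 (118 ± 5.24 CPM), GMPS (117 ± 3.61 CPM), CAD (116 ± 5.64 CPM) and PPAT (103 ± 6.46 CPM), of which CTPS1, GMPS and CAD did not differ beyond their spread. GFPT1 and PPAT were thus lower in pQ, at 105 and 78.9 CPM, than in siGL2, at 177 and 103 CPM. The siRNA and medium experiments differ in transfection and culture time, which cannot be told apart here, and these values were not tested.

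**Figure D1:**
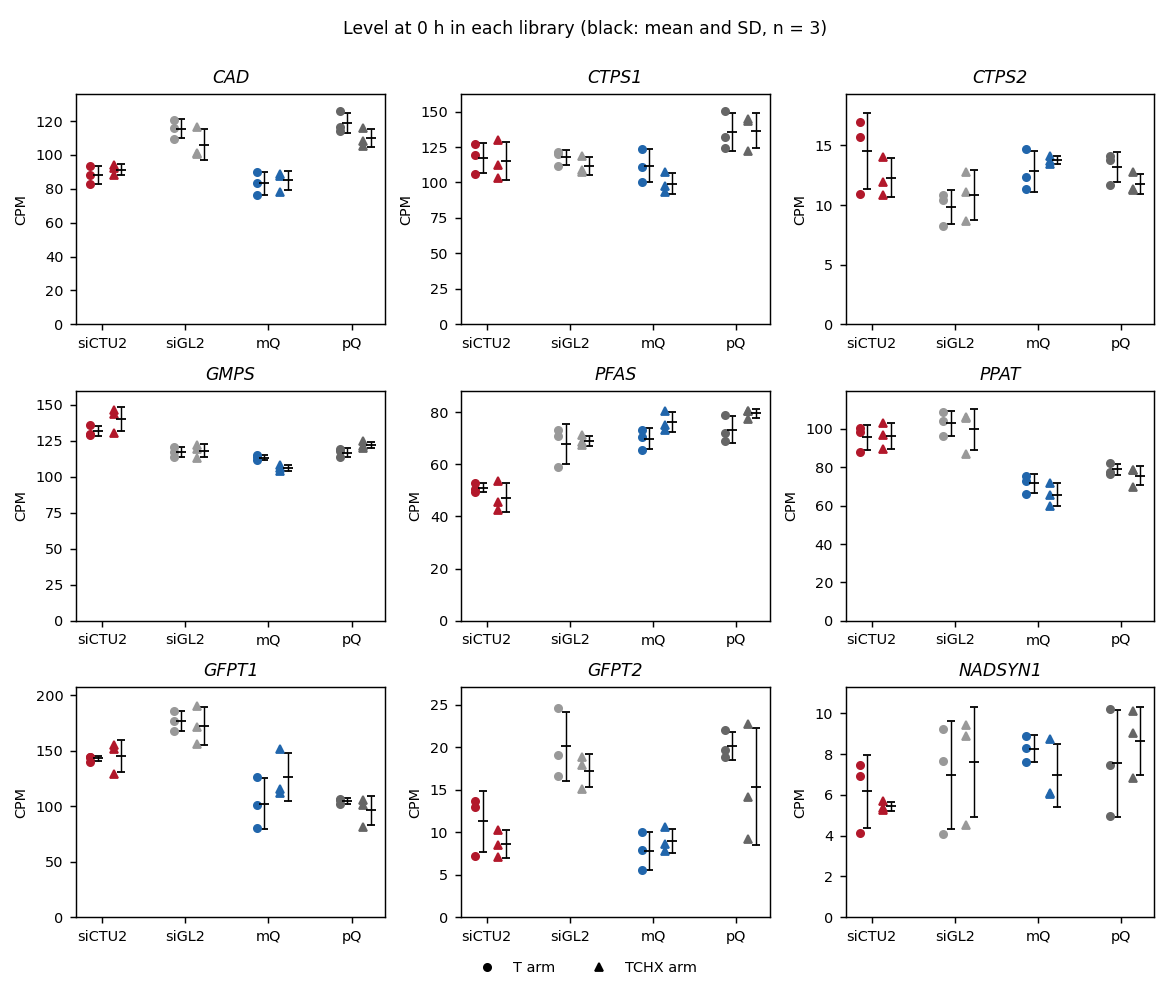
Level in CPM (vertical axes from 0) of the 9 counted members at 0 h in each library of the 4 conditions, as circles for the T arm and triangles for the TCHX arm, with mean and SD (n = 3) in black. In the T arm, CAD and GFPT2 sit lower in mQ than in pQ and lower in siCTU2 than in siGL2, and PFAS and GFPT1 are lower in siCTU2 than in siGL2.

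Whether loss of glutamine changed the mRNAs of the enzymes that use it was asked at 0 h by comparing mQ with pQ in the T arm. CAD and GFPT2 fell, and no member rose. Of 9 members tested, 2 were lower (edgeR quasi-likelihood test, Benjamini-Hochberg adjusted p under 0.05), where 12.4% of the 12374 genes tested were lower and 12.5% were higher. The median log2 fold change of the members was -0.02, against 0.01 over all genes tested. The libraries are bulk RNA, so fewer cells with an mRNA and less of it per cell cannot be told apart.

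GFPT2 was at 10.0, 5.52 and 7.87 CPM in mQ replicates 1 to 3 (81, 58 and 70 counts) and at 18.9, 22.0 and 19.6 CPM in pQ (176, 225 and 242 counts). Every mQ library was below every pQ library. The log2 fold change was -1.33 (SE 0.22, adjusted p = 0.00168, edgeR). In the TCHX arm at 0 h GFPT2 was lower by less, with a log2 fold change of -0.75 (adjusted p = 0.169, edgeR). There, the outlying replicate 3 library of pQ had 9.18 CPM, within the mQ range of 7.74 to 10.6 CPM. When it was left out, the log2 fold change in the TCHX arm was -1.01 (adjusted p = 0.00239, edgeR).

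CAD, the multifunctional enzyme whose first domain takes the amide nitrogen of glutamine, was at 76.5, 90.0 and 83.4 CPM in mQ and at 117, 126 and 114 CPM in pQ. The groups did not overlap. The log2 fold change was -0.46 (SE 0.11, adjusted p = 0.0102, edgeR). Leaving out mQ replicate 1 (-0.40, adjusted p = 0.0519) or pQ replicate 2 (-0.42, adjusted p = 0.0611) ended the call with little change in size, as did use of the TCHX arm (-0.35, adjusted p = 0.0663). With the outlying pQ library left out, the TCHX arm gave -0.37 (adjusted p = 0.0107).

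CTPS1 stood at 111, 124 and 100 CPM in mQ and at 150, 132 and 124 CPM in pQ, where the highest mQ library lay just under the lowest pQ library. Its log2 fold change in the T arm was -0.22 (SE 0.12, adjusted p = 0.192, edgeR). In the TCHX arm at 0 h it was -0.44 (adjusted p = 0.0361), or -0.51 when the outlying pQ library was left out (adjusted p = 0.000602). Leaving out mQ replicate 2 in the T arm gave -0.30 (adjusted p = 0.0386). CTPS1 was thus past the threshold in the TCHX arm and not in the T arm, and the difference between the arms was not tested.

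The remaining members did not pass the test in mQ. GMPS (113 against 117 CPM), PFAS (69.8 against 73.3 CPM), CTPS2 (12.8 against 13.2 CPM) and PPAT (71.6 against 78.9 CPM) had log2 fold changes between -0.09 and 0.01. NADSYN1, at 8.28 CPM in mQ and 7.55 CPM in pQ, had 0.19 with an SE of 0.27. GFPT1 was at 79.9, 101 and 126 CPM in mQ and at 102, 106 and 107 CPM in pQ. The mQ libraries of GFPT1 thus spanned the pQ range on both sides, and the log2 fold change was 0.02 (SE 0.15, adjusted p = 0.920, edgeR).

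More libraries gave narrower errors for a wider contrast over arms and times. As an alternative chosen after seeing the data, mQ and pQ were compared as the mean of the 0 h and 3 h groups of both arms. This fit used 24 libraries and TMM scaling, with the limit that the 3 h groups had been treated with triptolide. Libraries of the same replicate number and condition entered as separate replicates, so these errors may be too small. The outlying pQ library was kept. CTPS1 (-0.48, SE 0.05), CAD (-0.42, SE 0.05), GFPT2 (-0.83, SE 0.12) and PPAT (-0.19, SE 0.05) were then lower, where 23.9% of genes were lower. GFPT1 (0.33, SE 0.08, adjusted p = 0.00258, edgeR) was higher, where 21.6% of genes were higher. In mQ, however, GFPT1 differed by replicate number, at 79.9 to 115 CPM in replicate 1, 101 to 124 in replicate 2 and 126 to 165 in replicate 3. The pQ libraries of this fit ran from 80.7 to 107 CPM and so overlapped the lower mQ replicates. PFAS (-0.03), NADSYN1 (-0.03), GMPS (-0.10, adjusted p = 0.0773) and CTPS2 (0.19, adjusted p = 0.0882) were not past the threshold.

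CAD and CTPS1 were lower in mQ at every time. Their CPM ranges in mQ lay under those in pQ, with no overlap, in all 6 combinations of arm and time, which was so for 2 of the 9 members and for 1.07% of the genes tested. CAD ranged from 72.6 to 97.4 CPM (median 85.0 CPM) over the 18 mQ libraries and from 99.0 to 126 CPM (median 113 CPM) over the 18 pQ libraries. Every mQ library of CAD was therefore below every pQ library. CTPS1 ranged from 72.6 to 124 CPM (median 86.1 CPM) in mQ and from 106 to 150 CPM (median 128 CPM) in pQ. No member was higher in mQ in all 6 combinations, as 2.18% of genes were. GFPT2 was lower without overlap in 4 combinations, and 8.65% of genes were so in at least 4.

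**Figure D2:**
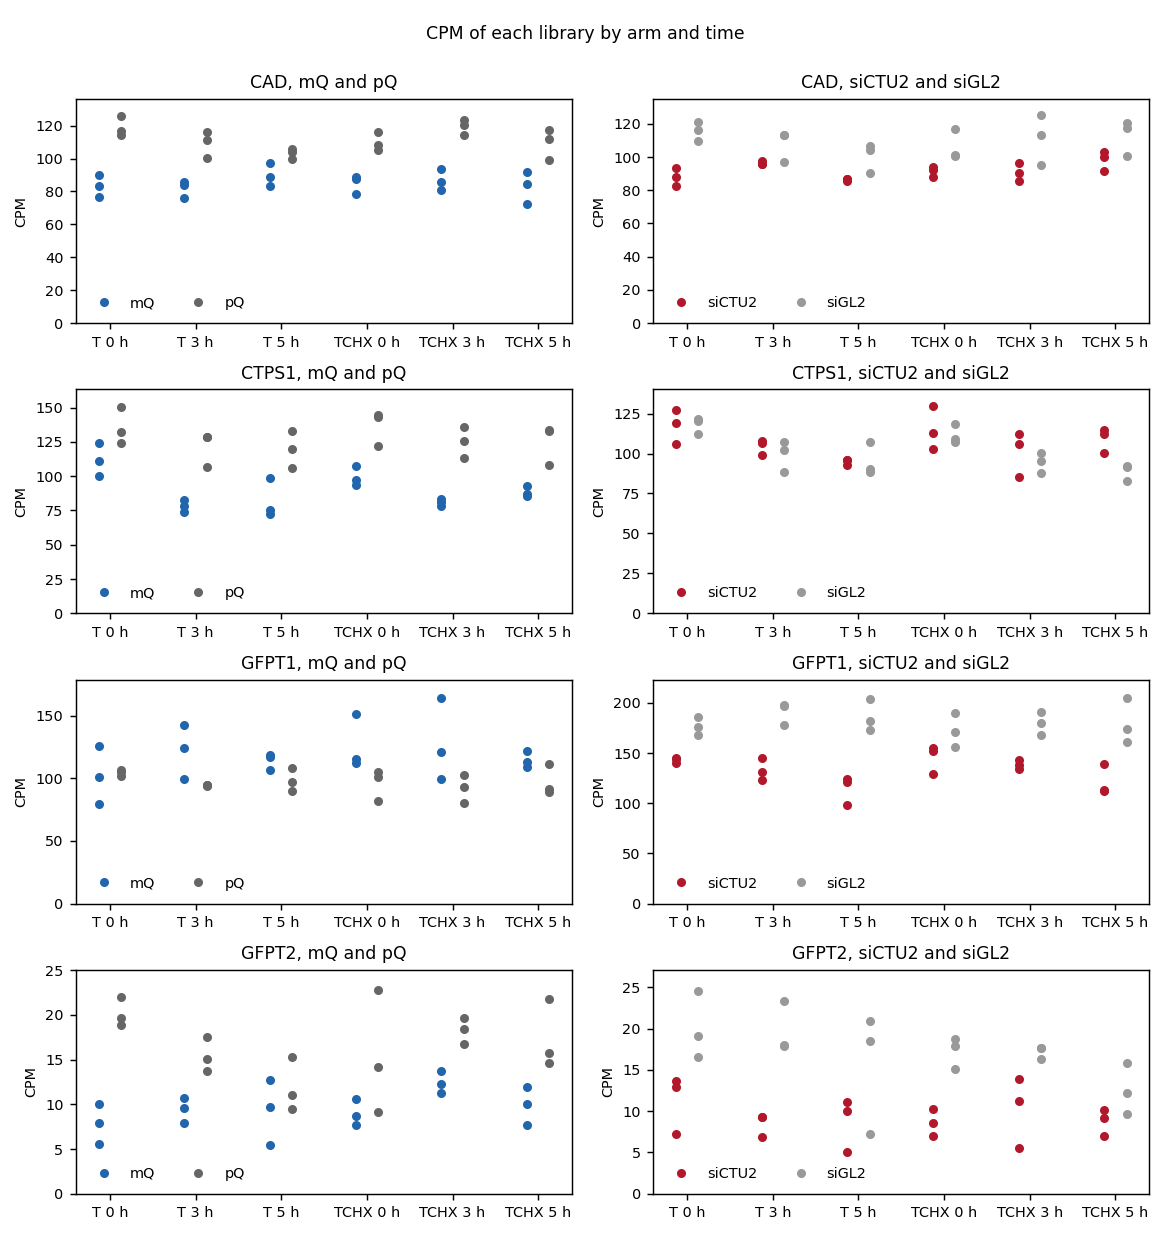
Level in CPM (vertical axes from 0) of CAD, CTPS1, GFPT1 and GFPT2 in every library, by arm (T or TCHX) and hours of treatment, for mQ and pQ (left) and siCTU2 and siGL2 (right). CAD and CTPS1 are lower in mQ than in pQ at each arm and time, GFPT1 is lower in siCTU2 than in siGL2 at each, and replicate 3 is included at 5 h.

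The other genes of the same pathways, taken from lists chosen with earlier results of these data known, were described by the same test at 0 h, where 12.4% of all genes were lower, 12.5% were higher and the median log2 fold change was 0.01. Of 10 other purine genes, 4 were lower in mQ, none was higher and 6 were not called, with a median log2 fold change of -0.14. These were PRPS2 (-1.23, SE 0.17) and PRPS1 (-0.40, SE 0.12), which make the ribose donor that PPAT uses, the purine enzyme PAICS (-0.87, SE 0.11) and ADSS2 (-0.52, SE 0.16), which leads to AMP. Of 7 other pyrimidine genes, 5 were lower, none was higher and 2 were not called (median -0.46). TYMS, which makes dTMP, was at 240 ± 29.7 CPM in mQ and 495 ± 44.9 CPM in pQ (SD, n = 3), a log2 fold change of -0.99, followed by CMPK1 (-0.59), DTYMK (-0.50), UMPS (-0.46) and RRM2 (-0.41). In the TCHX arm, with the outlying pQ library included, all 9 of these purine and pyrimidine genes had the same sign. None passed the threshold there (log2 fold changes -0.63 for TYMS to -0.16 for CMPK1). Over all genes, that fit called fewer than the T arm, and fewer than the TCHX arm without the outlying library. Values of these 9 genes without that library are not given here, so the absence of calls is not read as a failure to repeat.

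In the hexosamine list, 2 of 10 genes were higher in mQ, 1 was lower and 7 were not called (median -0.01). OGA and OGT, which remove and add the sugar that this pathway supplies on proteins, rose, with log2 fold changes of 1.27 (SE 0.13) and 0.94 (SE 0.16), and UAP1 fell by 0.88 (SE 0.17). For the TCHX arm at 0 h, with the outlying pQ library included, OGT was called (1.26, adjusted p = 0.00118, edgeR). There, OGA (0.55, adjusted p = 0.141) and UAP1 (-0.58, adjusted p = 0.0528) were not. Of 11 other asparagine and amide genes, 9 were tested, 3 were higher and 6 were not called (median 0.05). NARS1, which charges tRNA with asparagine, was at 535 ± 26.2 CPM in mQ and 309 ± 8.48 CPM in pQ (log2 fold change 0.84), and QRSL1 had 0.51. In the TCHX arm NARS1 was called (0.70, adjusted p = 0.00365, edgeR) and QRSL1 was not (-0.02, adjusted p = 0.963). Of 10 other NAD genes, 6 were tested and 0 were called by edgeR or DESeq2, with 1 (NAMPT) at an unadjusted p under 0.05 (median -0.24).

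CTU2 knockdown was compared with the control siRNA in the same way, to ask whether these mRNAs changed with it. Thiolation of tRNAs was not measured. The log2 fold change of CTU2 itself was -3.71 (SE 0.28). Of the 9 members, CAD, PFAS, GFPT1 and GFPT2 fell and CTPS2 rose. These were 4 lower members, where 18.2% of the 12292 genes tested were lower, and 1 higher, where 17.8% were higher. The median log2 fold change of the members was -0.18, against 0.00 over all genes, and 4 members did not pass the test.

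PFAS, which performs the glutamine-dependent step after PPAT and GART in purine synthesis, was at 52.8, 49.5 and 50.6 CPM in siCTU2 and at 73.3, 70.7 and 59.0 CPM in siGL2. All siCTU2 libraries were below all siGL2 libraries. The log2 fold change was -0.41 (SE 0.10, adjusted p = 0.00415, edgeR). Over the arms and times, PFAS was lower without overlap in 5 of 6 combinations, as 9.94% of genes were in at least 5. The exception was TCHX 5 h, where the outlying library of uncertain label had 68.8 CPM.

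GFPT1 was at 140, 144 and 145 CPM in siCTU2 and at 168, 186 and 176 CPM in siGL2. Its log2 fold change was -0.31 (SE 0.07, adjusted p = 0.00334, edgeR). The groups did not overlap in any of the 6 arm and time combinations, which held for GFPT1 alone among the members and for 4.50% of genes tested. Over all times, the 18 siCTU2 libraries ranged from 98.1 to 155 CPM and the 18 siGL2 libraries from 156 to 205 CPM.

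GFPT2 was at 13.7, 7.19 and 12.9 CPM in siCTU2 (130, 78 and 166 counts) and at 24.6, 16.6 and 19.1 CPM in siGL2. The groups did not overlap. The log2 fold change was -0.84 (SE 0.22, adjusted p = 0.00550, edgeR). CAD was at 93.5, 88.3 and 82.7 CPM in siCTU2 and at 121, 110 and 116 CPM in siGL2. Here too the groups did not overlap, and the log2 fold change was -0.39 (SE 0.08, adjusted p = 0.00116). In the TCHX arm the log2 fold change of CAD was -0.20 (adjusted p = 0.0800), so its call was lost there.

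CTPS2, the less abundant CTP synthase, was at 11, 17.0 and 15.7 CPM in siCTU2 and at 8.20, 10.4 and 10.9 CPM in siGL2, so the groups stood just apart. Its log2 fold change was 0.57 (SE 0.20, adjusted p = 0.0362, edgeR). This call was lost in the TCHX arm (0.21, adjusted p = 0.439). It was also lost when siCTU2 replicate 2 (0.45, adjusted p = 0.149), siCTU2 replicate 3 (0.51, adjusted p = 0.104), siGL2 replicate 1 (0.45, adjusted p = 0.151) or siGL2 replicate 2 (0.61, adjusted p = 0.059) was left out.

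GMPS, which makes GMP, was at 129, 130 and 136 CPM in siCTU2 and at 114, 121 and 117 CPM in siGL2. No siCTU2 library was as low as a siGL2 library, but the log2 fold change of 0.16 (SE 0.08, adjusted p = 0.104, edgeR) did not pass the test. In the TCHX arm it was 0.25 (adjusted p = 0.0223). GMPS was higher without overlap in 5 of 6 arm and time combinations, as 10.6% of genes were in at least 5, and no member was so in all 6, as 5.47% of genes were. CTPS1 (-0.01), PPAT (-0.11) and NADSYN1 (-0.18, SE 0.31) did not pass either.

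Over the 24 libraries of 0 h and 3 h in both arms, an alternative chosen after seeing the data, 5 members were lower in siCTU2, where 29.0% of genes were lower, and 2 were higher, where 29.4% were higher. PFAS (-0.59, SE 0.05), GFPT2 (-0.96, SE 0.12), GFPT1 (-0.37, SE 0.04), CAD (-0.27, SE 0.05) and NADSYN1 (-0.42, SE 0.15) were lower. CTPS2 (0.32, SE 0.11) and GMPS (0.16, SE 0.04) were higher. As in the medium experiment, libraries of the same replicate number and condition entered as separate replicates, so these errors may be too small.

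**Figure D3:**
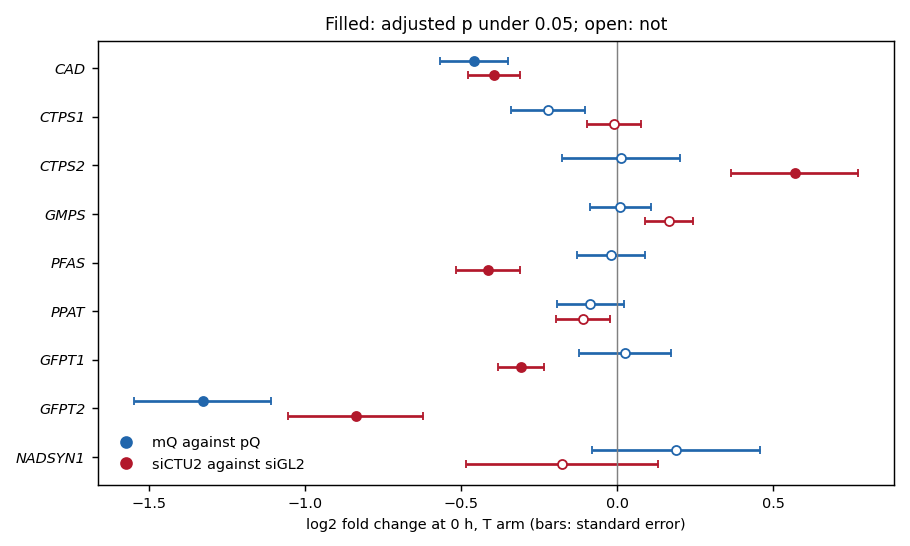
Log2 fold change at 0 h in the T arm for each counted member (horizontal axis, bars are standard errors, 3 libraries against 3), for mQ against pQ in blue and siCTU2 against siGL2 in red, with filled points at an adjusted p under 0.05. GFPT2 is farthest to the left in both comparisons, and CTPS2 in siCTU2 is the filled point to the right of 0.

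Under siCTU2, the other genes of 4 of the 5 pathways were called in both directions, where 17.8% of all genes were higher, 18.2% were lower and the median log2 fold change was 0.00. Of 10 other purine genes, 3 were higher (IMPDH1 0.32, PRPS2 0.31 and IMPDH2 0.26), 1 was lower (PAICS -0.37) and 6 were not called (median 0.09). Of 7 other pyrimidine genes, TYMS (0.52) and RRM2 (0.50), which makes deoxynucleotides, were higher, UMPS (-0.30) was lower and 4 were not called (median 0.17). Of 10 hexosamine genes, 4 were higher, 2 were lower and 4 were not called (median 0.13), with UAP1L1 at -0.82, OGT at 0.77 and PGM3 at 0.52. Of 6 other NAD genes tested, QPRT (-0.87) and NADK (-0.65) were lower, NAMPT (0.32) was higher and 3 were not called (median -0.28). Of 9 asparagine and amide genes tested, 6 were lower, none was higher and 3 were not called (median -0.52), led by QRSL1 (-0.71), GATC (-0.70) and CPS1 (-0.66). QRSL1, GATC and GATB (-0.66), which together form the mitochondrial amidotransferase that makes glutaminyl-tRNA, were all lower in siCTU2 in the T arm. GATC was also called in the TCHX arm (-0.43, adjusted p = 0.019), and QRSL1 (-0.10, adjusted p = 0.689) and GATB (-0.26, adjusted p = 0.282) were not called there.

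The medium effect was set against the siRNA effect at 0 h in 1 fit of 12 libraries. PFAS differed by 0.39 on the log2 scale (SE 0.15, adjusted p = 0.0497, edgeR) and was the 1 member of 9 past the threshold, where 32.0% of 12950 genes were. It was lower in siCTU2 and near its control in mQ. This call was lost when any 1 replicate number was left out. The difference was then 0.32 (adjusted p = 0.328) for replicate 1, 0.43 (adjusted p = 0.0898) for replicate 2 and 0.42 (adjusted p = 0.106) for replicate 3. With the replicate number as a block it was 0.39 (adjusted p = 0.0584). For CAD (-0.06, SE 0.14) and GFPT2 (-0.49, SE 0.34), which were lower in both experiments, the difference did not pass the test. For PFAS, the TCHX arm also gave a call (0.49, adjusted p = 0.0196, edgeR), as it did without the outlying pQ library (0.48, adjusted p = 0.0166). Both arms at 0 h together gave 0.44 for PFAS (adjusted p = 0.000752, edgeR). In the TCHX arm, CTPS1 (-0.50), GMPS (-0.44) and GFPT1 (0.64) also differed, with adjusted p of 0.0194, 0.0108 and 0.0169 (edgeR).

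The composition of the coding sequences was examined for the codons read by the tRNAs that CTU2 modifies. AAA, GAA and CAA made up a median of 5.66% of codons (quartiles 2.95% and 9.29%) over 19701 canonical coding sequences, and 7 of the 10 members were above it. PPAT had 12%, more than 88.4% of coding sequences, with 75.8% of its lysine codons as AAA. GMPS (9.81%), GFPT1 (9.30%), ASNS (9.09%), CTPS2 (8.53%), CTPS1 (8.29%) and GFPT2 (6.89%) followed. NADSYN1 (2.97%), CAD (2.88%) and PFAS (2.69%) were close to or below the first quartile. Of the members lower in siCTU2, GFPT1 and GFPT2 were thus above the median share and CAD and PFAS below it.

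Loss of each mRNA after the block of transcription was then examined in the T arm at 3 h against 0 h. Counts were scaled to genes whose CPM rose in every replicate (197 in the siRNA and 81 in the medium experiment, none of them a member), so each change is relative to these stable genes. Over all genes the median log2 change was -0.55 in siCTU2, -0.47 in siGL2, -0.72 in mQ and -0.70 in pQ. In siCTU2 7 of 9 members were lower (63.2% of genes were), in siGL2 6 (55.1%), in mQ 6 (64.9%) and in pQ 8 (70.9%), and none was higher. Their median changes were -0.54, -0.37, -0.64 and -0.73. With TMM scaling, which centres the median change of all genes between -0.01 and 0.03, these directions are relative to the typical gene. CAD in siCTU2 was then higher (0.27, adjusted p = 0.0299, edgeR), GMPS had 0.067 to 0.17 in the 4 conditions with no call, and CTPS1 in mQ was the 1 member still lower.

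CTPS1, PPAT, CAD, GMPS and PFAS fell in all 4 conditions on the stable-gene scale, and the share of all genes that did so was not counted. Relative to the median change of all genes, GMPS was above it in each condition (by 0.04 to 0.15). CTPS1 was below it in each (-0.42 to -0.04), and CAD, PPAT and PFAS lay on both sides. For CTPS1 in mQ, the replicates had 44.1% to 48.7% of the 0 h count left at 3 h (mean 45.8% ± 2.55, SD, n = 3), a log2 change of -1.13 (SE 0.15). In pQ 59.7% ± 7.14 was left (-0.74, SE 0.15), in siGL2 64.0% ± 4.16 (-0.64, SE 0.13) and in siCTU2 65.5% ± 6.36 (-0.62, SE 0.13). No mQ replicate overlapped the pQ range of 52.8% to 67.1%, but the difference between the conditions (-0.40, SE 0.21, adjusted p = 0.583, edgeR) did not pass the test. PPAT had 51.1% ± 3.07 left in mQ, 55.4% ± 5.03 in pQ, 62.6% ± 1.25 in siGL2 and 69.0% ± 5.99 in siCTU2. Of all genes, 25.4% fell more than CTPS1 in mQ, and 32.8% to 51.3% fell more than PPAT across the 4 conditions.

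CAD had 80.6% ± 7.24 left in siCTU2, 71.1% ± 7.90 in siGL2, 64.7% ± 11.1 in mQ and 61.4% ± 7.6 in pQ. GMPS had 64.3% to 77.3% left on average across the conditions, and PFAS 59.3% to 77.4%. GFPT1 fell in siCTU2 (-0.55), siGL2 (-0.28) and pQ (-0.73), and in mQ had -0.38 (SE 0.19, adjusted p = 0.0808, or 0.0311 with a replicate block, edgeR). GFPT2 fell in pQ (-0.97, SE 0.25) and siCTU2 (-0.86, SE 0.24), and had -0.34 (SE 0.27) in mQ. CTPS2 fell in pQ (-0.78, SE 0.21), and NADSYN1 in mQ (-0.70, SE 0.25). In siCTU2 CTPS2 had -0.44 (adjusted p = 0.0725, or 0.0415 with a replicate block, edgeR). Low counts came with wide spread, as for NADSYN1 in siGL2, where replicates had 70.6% to 202% left.

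The calls of several members rested on single replicate numbers. Without replicate 1 the calls of CAD (-0.24) and GFPT2 (-0.73) in siCTU2 were lost. In siGL2 that of PFAS was lost without any 1 of the 3 (-0.33 to -0.40), and that of GFPT1 without replicate 2 (-0.27) or 3 (-0.23). That of NADSYN1 in mQ was lost without replicate 1 (-0.76) or 3 (-0.63), and that of CTPS2 in pQ without replicate 3 (-0.53). In siCTU2, CTPS2 was called without replicate 1 (-0.74) and NADSYN1 without replicate 2 (-0.78). At 5 h in mQ, 3 members were lower (CTPS1 -0.91, PPAT -0.87 and GMPS -0.61), and CAD was also lower (-0.45) when replicate 3 of all groups was left out. The share of all genes lower at 5 h is not given here (64.9% at 3 h in mQ), so this count is not read as a result about the members. The change over 3 h was compared between conditions as a difference of differences, and 0 members differed between siCTU2 and siGL2 (0.919% of genes did) or between mQ and pQ (0.110%) by edgeR or DESeq2. At an unadjusted p under 0.05, 1 member (PFAS) and 0 members did.

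**Figure D4:**
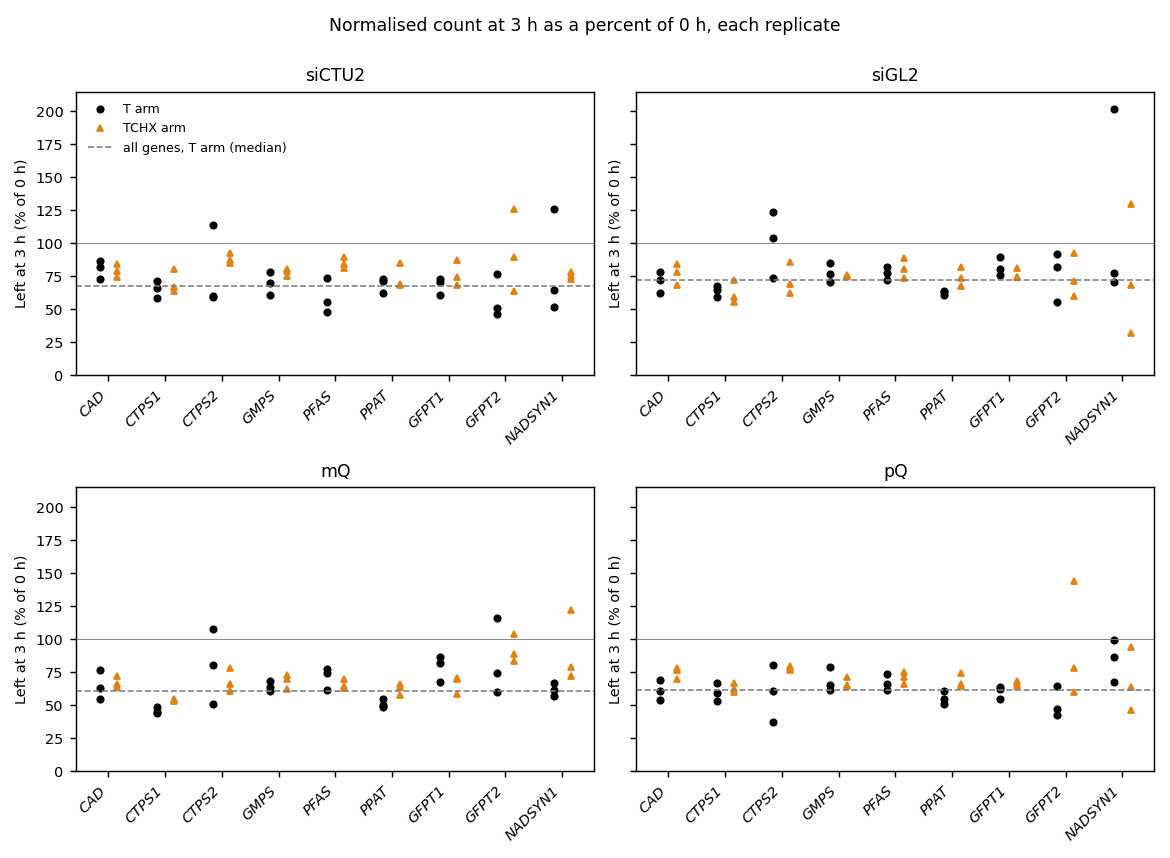
Normalised count at 3 h as a percent of the 0 h count of the same replicate number and arm (vertical axes), for the 9 counted members in each condition, as black circles for the T arm and orange triangles for the TCHX arm. The dashed line is the median change of all genes in the T arm, and CTPS1 in mQ lies between 44.1% and 48.7% in the T arm.

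Whether ongoing translation was needed for this loss was asked by comparing the TCHX arm with the T arm at 3 h. By edgeR or DESeq2, 0 of 9 members differed in siCTU2 (13.8% of genes did), siGL2 (9.51%), mQ (14.4%) or pQ (6.32%). At an unadjusted p under 0.05 there was 1 member in siCTU2 (PFAS), 1 in siGL2 (PPAT) and 0 in mQ and pQ. PFAS in siCTU2 had 59.3% ± 13.1 left in the T arm and 85.4% ± 4.52 in the TCHX arm, with no overlap between the ranges of 48.2% to 73.8% and 81.1% to 90.1%. Its log2 difference between the arms at 3 h was 0.35 (SE 0.14, adjusted p = 0.0983, edgeR). With the replicate number as a block it was 0.34 and called (adjusted p = 0.0209). PPAT had more left in the TCHX arm on average in each condition (74.5%, 74.5%, 62.2% and 68.5% in siCTU2, siGL2, mQ and pQ), with log2 differences of 0.04 to 0.23. The median log2 difference of all genes was also positive, at 0.13, 0.04, 0.16 and 0.05 in the same order. PPAT was below this median in siCTU2 and above it in siGL2, mQ (by 0.04) and pQ. The effect of cycloheximide did not differ for any member between siCTU2 and siGL2 (0.188% of genes did) or between mQ and pQ (0.0658%). This count of 0 was the same with DESeq2 and at an unadjusted p under 0.05.

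The TDD index, for translation-dependent decay, subtracts the normalised count with triptolide alone from that with cycloheximide added, hour for hour, and scales it to the 0 h count. It was modelled per gene over 3 h and 5 h with terms for condition, time and replicate (limma, no moderation). Between siCTU2 and siGL2, 0 of 9 members reached an unadjusted p of 0.05 or less, as 8.15% of genes did, and none had an adjusted p under 0.05. This fit holds the outlying library whose siCTU2 label is uncertain, and indices of siCTU2 replicate 3 at 5 h included 0.666 for PFAS and 0.322 for CTPS1. Without replicate 3, CTPS1 reached the unadjusted threshold (0.0901), and without replicate 2 GMPS (0.101) and GFPT2 (0.326) did. Between mQ and pQ, 1 member did, where 4.78% of genes did. This was NADSYN1, with an index of 0.0848 ± 0.0442 in mQ and -0.143 ± 0.0797 in pQ (SD of 3 replicates), a difference of 0.23 (SE 0.07, adjusted p = 0.785, limma). The mQ values ran from -0.0343 to 0.22 and the pQ values from -0.429 to -0.0155, so they overlapped. The difference did not hold after adjustment, and without replicate 1 it was 0.21 and past neither threshold. This medium fit holds the outlying mQ and pQ libraries, and indices of mQ replicate 3 at 5 h included -0.357 for CAD and -0.31 for PFAS. Without replicate 3, CTPS1 reached the unadjusted threshold between mQ and pQ (0.101). Values at 3 h and 5 h share a 0 h count and are not independent.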

How the data were processed

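Raw read counts per gene were deposited by the authors for 72 libraries. Per the submitters' processing notes and the study's methods, reads were trimmed with fastp 0.20.1, mapped to GRCh38.p13 with HISAT2 2.2.1 and counted on exons of the NCBI annotation with htseq-count 0.13.5. No molecular identifiers were stated, so intervals cover counting error only. The members, lists and tests were chosen with earlier results of these data known. All columns matched a sample label.

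Counts were analysed in R 4.3.3 with edgeR 4.0.16 (filterByExpr, quasi-likelihood test, Benjamini-Hochberg threshold 0.05), with TMM at 0 h (6 libraries, or 12 for the difference of effects) and, after transcription was blocked, with size factors from stable genes (24 libraries of 0 h and 3 h per experiment). A stable gene had over 0.2 CPM at 0 h, at least 1.1 times that at 3 h or 5 h, and a 0 h CPM over 0.1 times the later one, whatever the arm, replicate or condition of the experiment. TDD indices were fitted with limma 3.58.1 for genes whose normalised 0 h count averaged 10 or more in each condition. DESeq2 1.42.0, other scalings, arms and times, no filter, a replicate term and left-out replicates were alternatives. Scripts were tested on simulated data. The text names all members, CTU2, and up to 3 called genes per list and comparison with the largest change. The list genes named beyond the first 3 were chosen after their values were seen, and 1 list gene is not reported here.

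Count columns of the same replicate number share a name prefix across conditions, arms and times, and nothing in the sources says what it marks. Same-numbered libraries deviated together in the siRNA experiment at 0 h in the T arm (r 0.105, 0.195 and 0.294). With the replicate block, the same count of 5 members was called there.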

Additional observations from a re-analysis of the deposited data

Results flagged for a closer look

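The effect of glutamine loss on PFAS differed from that of CTU2 knockdown by 0.39 on the log2 scale at 0 h (SE 0.15, adjusted p = 0.0497, edgeR, 3 libraries per condition). The result was picked out because the difference between the experiments itself passed the test.

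NADSYN1 was picked out because its TDD index was 0.23 higher in mQ than in pQ at an unadjusted p of at most 0.05. It had an adjusted p of 0.785 (limma).

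ASNS, left out of the fits by the count filter, was picked out because its 56 counts in the mQ libraries stood above the 6 counts in the pQ libraries. The part of the overlapping gene and of the pseudogene ASNSP1 in these counts was not tested.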

How the results depend on the processing

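Of 179 counts of members called under an alternative, 150 were within 1.5 times the main count. For mQ against pQ at 0 h (2 members), 1 was called in the TCHX arm, 4 in that arm without pQ replicate 3, 5 over 24 libraries with or without a replicate block, and 1 to 3 when a library was left out. Over all genes, 3071 were called in the main fit, 810 in the TCHX arm and 2553 in that arm without pQ replicate 3. Over 24 libraries 6222 genes were called, or 6513 with the block, and 1476 to 3319 when a library was left out. For the difference of effects at 0 h (1 member), 0 were called with DESeq2 size factors, with no filter, with a replicate block and without any 1 replicate number (0 to 0), and 4 in the TCHX arm, in that arm without pQ replicate 3, and with both arms. With TMM, the change over 3 h was called for 1 member in siCTU2, 0 in siGL2, 1 in mQ and 0 in pQ. With stable genes at 5 h it was called for 3 in mQ. The TCHX effect was called for 1 member in siCTU2 with a replicate block (PFAS, 0.34) and for 1 in mQ at 5 h without replicate 3 (PPAT, 0.44). The TDD index reached the unadjusted threshold for 0 to 2 members when a replicate was left out, in both experiments, and in the medium experiment for 2 with TMM, 0 at 3 h alone and 5 against each arm's own 0 h library, where GFPT1 turned to -0.23. All-gene counts of the other alternatives are not given here, so their member counts are not read as a result about the members.

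Other reversals came with TMM in the change over 3 h, since stable-gene scaling shifts all genes. In siCTU2 these were CAD (0.27), GMPS (0.067), PPAT (0.042) and GFPT1 (0.032), in siGL2 GMPS (0.12), PFAS (0.13) and GFPT1 (0.21), in mQ CAD (0.060), GMPS (0.069), PFAS (0.21) and NADSYN1 (0.013), and in pQ CAD (0.0087), GMPS (0.17) and PFAS (0.14). Of these 14 TMM values, 13 were no longer called, and CAD in siCTU2 was called in the opposite direction. Of the 1611 values of single members under alternatives, 15 turned sign with a call in at least 1 of the fits, 48 others lost and 48 gained a call, and 89 changed sign by more than 1 SE with no call in either fit. The other 1411 kept their side of the threshold and their direction, apart from uncalled values that crossed 0 within 1 SE. The 24-library fits with and without the block, the TCHX fits without pQ replicate 3 and the 5 h fits without replicate 3 were chosen after seeing the data.

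In the medium experiment same-numbered libraries did not all deviate together (r 0.136, -0.166 and -0.149 at 0 h in the T arm). Over its 0 h and 3 h groups the mean r was 0.178, 0.112 and 0.206, with the lowest pair at -0.349, and in the siRNA experiment 0.14, 0.278 and 0.316, with the lowest at -0.14. The replicate block called 2 members for mQ against pQ at 0 h, as without it, and 7 for siCTU2 against siGL2 over 24 libraries. Beyond the counts given above, it changed no count of members by over 1.5 times. Low counts limit NADSYN1, CTPS2 and GFPT2 (21 to 275 per library). Where a cause of a change is not given, the cause was not tested.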

Other observations

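As a measure of balance between paralogs, GFPT2 made up 7.40% ± 3.26 of the summed GFPT1 and GFPT2 counts in mQ and 16.2% ± 0.942 in pQ at 0 h in the T arm (SD, n = 3), and the highest mQ library (11.1%) was below the lowest pQ library (15.6%). The exact permutation test gave p = 0.1 (two-sided), the smallest that 3 against 3 allows. The share was 7.28% ± 2.22 in siCTU2 and 10.3% ± 2.31 in siGL2, with overlapping ranges (exact permutation p = 0.2). CTPS2 made up 11.1% ± 2.75 of CTPS1 and CTPS2 counts in siCTU2 and 7.71% ± 1.28 in siGL2 (exact permutation p = 0.3), and 10.4% ± 2.09 in mQ and 8.96% ± 1.5 in pQ (exact permutation p = 0.6). These 4 p-values are unadjusted, and the design does not allow one under 0.1.

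Across the 24 libraries of 0 h, which fall into 8 groups of condition and arm, the gene with the most similar log2(CPM + 1) to CAD was NUDC (Pearson r = 0.90), followed by LYAR (0.898) and UMPS (0.887), among 8494 genes with a mean of at least 10 CPM. The closest were GOLPH3L (0.944) for PFAS, DICER1 (0.929) for PPAT, PLIN3 (0.920) for GMPS, ATP5MC3 (0.903) for GFPT2, BIRC2 (0.901) for GFPT1 and NDUFAF8 (0.838) for CTPS1. For CTPS2 (ZNF134, 0.730) and NADSYN1 (MYNN, 0.680), which had low counts, the closest genes were less similar. Among members, CAD and GFPT2 (0.763), PPAT and GFPT1 (0.700) and CAD and CTPS1 (0.628) had the highest r. These values describe the libraries and carry no test.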
